A study of Mus musculus with 2 samples.

Results

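The genes described here are 10 mouse genes of the meiotic chromosome axis, of synapsis and of meiotic recombination. They are *Sycp1*, *Sycp2*, *Sycp3*, *Syce1*, *Hormad1*, *Stag3*, *Smc1b*, *Rec8*, *Dmc1* and *Spo11*. The rule chose them by name alone, with earlier results of these data known, and all 10 were found among the 26127 probes (merged gene models) quantitated in WT and H3.3 G34R embryonic stem (ES) cells. In G34R cells *Smc1b* and *Hormad1* were lower, *Dmc1* was higher, and 5 further members differed by less than 2-fold. *Sycp2* and *Spo11* stayed under the minimum of 0.25 RPKM used for counting.

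Homologous chromosomes are paired and recombined in meiotic prophase, when sister chromatids are folded into loops along a protein axis. That axis holds the meiotic cohesin subunits Smc1b, Rec8 and Stag3 together with Sycp2, Sycp3 and Hormad1. Spo11 cuts the DNA, Dmc1 carries out strand exchange with the homologue, and the synaptonemal complex then joins the axes, with Sycp1 as its transverse filament and Syce1 in its central element. Outside germ cells many of these genes are kept silent by DNA methylation of CpG-containing promoters, and in ES cells also by the PRC1.6 complex, whose subunits E2f6 and Mga with Max bind E2F motifs and E-boxes.

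ES cells are pluripotent cells derived from the early embryo. The WT line was unmodified (H3f3a+/+; H3f3b+/+). The G34R line (H3f3a+/G34R; H3f3b+/+) carried a glycine to arginine change in the histone variant H3.3, encoded by a transgene placed in 1 copy of *H3f3a* by gene targeting and put under the endogenous promoter by Cre excision of a WT minigene and a *neo* cassette. Both lines were of the 129S1/SvImJ strain, below passage 20, and were grown in serum with leukaemia inhibitory factor. Total RNA was sequenced as 1 library per line, so replicate spread is unknown for every value below, no difference was tested, and the genotype cannot be told apart from the clone or the culture.

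Levels were deposited as RPKM, the reads of a gene divided by the length of its merged exons and by the size of the library. The files give no read counts, but low RPKM values were spaced in steps worth 1 read each, and from these steps in short genes of 1 exon totals of 88300000 reads for WT and 72700000 for G34R cells were estimated. Reads per gene given below are estimates from these totals, and the 95% intervals beside them (exact Poisson for a level, exact binomial for a ratio) cover counting error only. A gene was counted as lower or higher when it differed more than 2-fold and reached at least 0.25 RPKM in 1 library. Of the 13366 probes with at least 0.25 RPKM, 9.64% were lower in G34R cells and 5.79% were higher.

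The pluripotency markers were high in both libraries, with *Pou5f1* at 194.34 RPKM in WT and 189.46 RPKM in G34R cells and *Sox2* at 73.83 and 75.05 RPKM. Of 10 such markers 2 were lower in G34R cells, *Zfp42* (180.30 to 16.40 RPKM) and *Nanog* (127.07 to 52.24 RPKM). All 10 had a mean of at least 5 RPKM, where 3.1% of probes were lower and 2.59% higher. The 8 fibroblast markers summed to 1.77 and 1.49 RPKM, and *Dcn*, *Lum* and *Postn* were listed at 0 in both. Of 10 germ cell markers 5 reached 0.25 RPKM. Of these, 4 were lower in G34R cells (*Dazl*, *Stra8*, *Sohlh2* and *Gtsf1*, the last at 1.58 and 0.28 RPKM) and 1 was higher (*Ddx4*). Over all probes 9.64% were lower and 5.79% higher. The 10 germ cell markers summed to 27 RPKM in WT and 12.6 RPKM in G34R cells. Their oocyte transcription factors *Figla* and *Nobox* stayed at 0.05 RPKM or less, and *Sohlh1* was listed at 0 in both libraries. In bulk RNA, fewer cells that express a gene and less RNA in each cell cannot be told apart.

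The promoters of the members are shown here because silencing of these genes is known to act there and because the members did not move together. RefSeq (GRCm38.p6) held a promoter for 9 of the 10 members, and *Spo11* had no entry. The 250 bases upstream of the annotated start are given 5′ to 3′ for 6 members, with the E-box CACGTG and the E2F motif TCCCGC (or its reverse complement GCGGGA) in capitals. They begin with *Smc1b* (chr15:85131958-85132207, minus strand) and *Hormad1* (chr3:95559427-95559676, plus strand), the members that were lower in G34R cells. *Dmc1* (chr15:79605110-79605359, minus strand), the member that was higher, comes next. *Sycp3* (chr10:88459337-88459586, plus strand), *Sycp1* (chr3:102936101-102936350, minus strand) and *Stag3* (chr5:138280259-138280508, plus strand), which differed by less than 2-fold, stand last for comparison.
Smc1b: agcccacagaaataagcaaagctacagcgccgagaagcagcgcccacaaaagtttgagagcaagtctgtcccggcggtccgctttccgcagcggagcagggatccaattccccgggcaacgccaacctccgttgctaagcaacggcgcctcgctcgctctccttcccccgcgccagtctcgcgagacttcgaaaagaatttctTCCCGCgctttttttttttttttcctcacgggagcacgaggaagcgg
Hormad1: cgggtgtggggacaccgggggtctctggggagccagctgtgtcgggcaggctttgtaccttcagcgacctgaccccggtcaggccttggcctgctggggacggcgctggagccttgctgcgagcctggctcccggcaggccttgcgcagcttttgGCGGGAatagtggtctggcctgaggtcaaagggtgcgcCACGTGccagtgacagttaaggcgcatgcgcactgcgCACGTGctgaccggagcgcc
Dmc1: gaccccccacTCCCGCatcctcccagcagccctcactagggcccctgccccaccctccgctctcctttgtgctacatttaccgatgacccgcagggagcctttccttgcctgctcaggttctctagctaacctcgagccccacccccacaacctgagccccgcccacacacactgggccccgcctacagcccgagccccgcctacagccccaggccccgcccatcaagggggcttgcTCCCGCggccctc
Sycp3: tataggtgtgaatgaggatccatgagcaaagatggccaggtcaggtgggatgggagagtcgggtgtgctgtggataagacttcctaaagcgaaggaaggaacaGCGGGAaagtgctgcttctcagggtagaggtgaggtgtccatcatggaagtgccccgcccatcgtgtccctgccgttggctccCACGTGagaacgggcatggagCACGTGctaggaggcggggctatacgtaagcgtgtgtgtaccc
Sycp1: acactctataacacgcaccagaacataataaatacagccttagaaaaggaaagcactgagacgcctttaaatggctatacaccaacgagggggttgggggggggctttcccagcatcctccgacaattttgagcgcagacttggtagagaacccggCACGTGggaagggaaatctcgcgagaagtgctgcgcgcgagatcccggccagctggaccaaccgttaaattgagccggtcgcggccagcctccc
Stag3: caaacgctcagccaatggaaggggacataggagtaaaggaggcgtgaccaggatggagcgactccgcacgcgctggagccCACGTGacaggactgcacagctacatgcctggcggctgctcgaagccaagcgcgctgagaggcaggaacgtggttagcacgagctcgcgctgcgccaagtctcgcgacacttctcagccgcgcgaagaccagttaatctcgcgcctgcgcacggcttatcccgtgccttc

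Of the 9 member promoters, 4 held the E-box on either strand (a palindrome, so both strands read alike) and 5 held the E2F motif on either strand, with both in 2. Among all 32841 RefSeq promoters of the same length, 6.02% held the E-box, 16.9% the E2F motif and 1.45% both. Both motifs contain a CpG, and these promoters were not matched to the members in CpG number. They came from 27018 genes, while each member entered with 1 promoter, so the shares are not directly comparable. *Hormad1* and *Sycp3* were the members with both motifs, each with 2 E-boxes and 1 E2F motif, and their RNA differed in opposite directions. *Smc1b* and *Rec8* held 1 E2F motif and no E-box, *Dmc1* held 2 E2F motifs, *Stag3* and *Sycp1* held 1 E-box, and *Syce1* and *Sycp2* held neither. The number of CpG dinucleotides was between 7 (*Sycp2*) and 26 (*Stag3*), with a median of 13 against 6 for all promoters. *Smc1b* had 25 CpGs, *Hormad1* 19 and *Dmc1* 12, and 10.7%, 19.7% and 33.5% of all promoters respectively had at least as many. A match marks letters in the window only, and neither methylation nor factor binding was analysed here.

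Of the 8 members with at least 0.25 RPKM, 2 were lower in G34R cells, 1 was higher and 5 were within 2-fold. Their median log2 (G34R/WT RPKM) was -0.16, with 4 below and 4 above 0, and the median over all probes that passed was -0.07. Low genes pass a fold threshold more often, so the counts were also set beside genes of like level. With a mean of 1 to under 5 RPKM, 7.32% of probes were lower and 4.62% higher, against 1 lower (*Smc1b*) and 1 higher (*Dmc1*) of 4 members. From 5 RPKM upwards 3.1% of probes were lower and 2.59% higher, against 1 lower (*Hormad1*) and 0 higher of 3 members. *Sycp1* was the only member between 0.25 and 1 RPKM, where 20.7% of probes were lower and 11.2% higher, and it differed by less than 2-fold. The 10 members summed to 35.38 RPKM in WT and 22.08 RPKM in G34R cells.

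**Figure D1:**
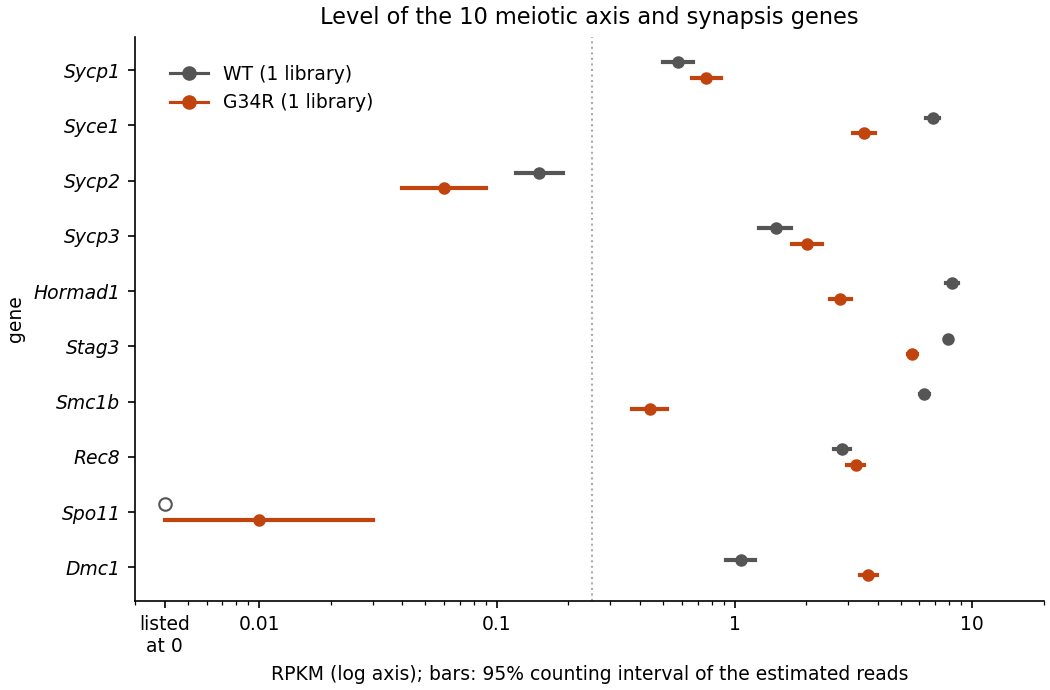
RPKM of each member in the WT (grey) and G34R (red) library on a log axis, with bars for the 95% counting interval of the estimated reads, an open circle for a value listed at 0 and a dotted line at 0.25 RPKM. *Smc1b* is furthest apart, at 6.29 and 0.44 RPKM, and *Dmc1* (1.06 and 3.66 RPKM) lies the other way round.

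*Smc1b*, the meiotic paralogue of the cohesin ring subunit Smc1a, had 6.29 RPKM in WT cells (6.03 to 6.56, 2243 estimated reads) and 0.44 RPKM in G34R cells (0.37 to 0.52, 129 reads). It was therefore 14.3-fold lower in G34R cells, with a log2 ratio of -3.84 and a counting interval of -4.11 to -3.58. The gene (ENSMUSG00000022432) spans 84895121 to 84962387 on the minus strand of chromosome 15 in mm9, and has 1 annotated transcript of 25 exons. *Stag3*, which takes the place of Stag1 and Stag2 in meiotic cohesin, had 7.92 RPKM in WT and 5.60 RPKM in G34R cells, for a log2 ratio of -0.50 (-0.57 to -0.43), and lies on chromosome 5 from 138721468 to 138753621 on the plus strand. Its counting intervals were 7.68 to 8.17 and 5.38 to 5.83 RPKM, from an estimated 4009 and 2334 reads. With many reads such intervals part at small differences and say nothing of replicate spread. Those of *Rad21* (44.67 to 46.16 and 56.56 to 58.40 RPKM) did so at a log2 ratio of 0.34. *Rec8*, the meiotic kleisin that closes the ring in place of Rad21, had 2.84 and 3.23 RPKM, for a log2 ratio of 0.19 (0.03 to 0.34), and lies on the plus strand of chromosome 14 from 56236874 to 56244232. Its intervals overlapped (2.63 to 3.06 and 2.98 to 3.49 RPKM). The 3 cohesin subunits thus differed unequally, and only *Smc1b* passed 2-fold.

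The mitotic counterparts gave a reference within each library. *Smc1a* was at 11.92 RPKM in WT and 11.43 RPKM in G34R cells, and *Smc1b* made up 34.5% of the RPKM of the pair in WT cells and 3.71% in G34R cells. *Stag3* made up 40.2% and 28.4% of the sum with *Stag1* (5.92 and 6.64 RPKM) and *Stag2* (5.88 and 7.46 RPKM). *Rec8* stayed a small part beside *Rad21* (45.41 and 57.48 RPKM), at 5.89% in WT cells and 5.32% in G34R cells. None of the 10 mitotic cohesin genes listed, which include *Smc3*, the loading factor *Nipbl* and the release factor *Wapal*, passed 2-fold, and their log2 ratios lay between -0.14 and 0.34. All 10 had a mean of at least 5 RPKM, where only 3.1% of probes were lower and 2.59% higher. Few or none of 10 genes would pass 2-fold at these shares. The shares depend on merged exon length, which for *Stag3* exceeds its longest coding transcript (5733 bp against 4211 bp), as it does for *Rec8* (2748 bp against 2184 bp). Their levels per coding transcript may therefore be understated in both libraries alike.

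**Figure D2:**
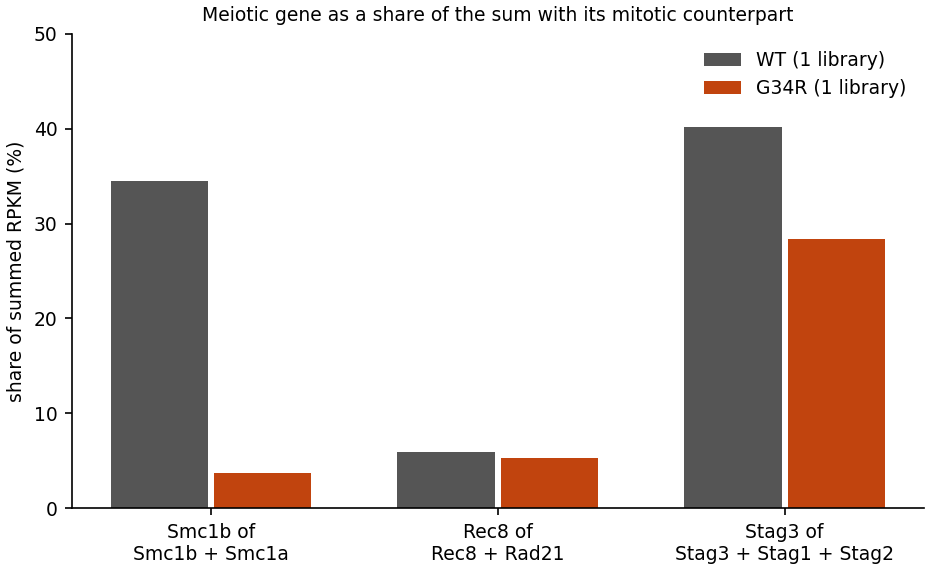
Share of the meiotic gene in the summed RPKM with its mitotic counterpart, in percent, in WT (grey) and G34R (red) cells, 1 library each and without error bars. The share of *Smc1b* is 34.5% (WT) and 3.71% (G34R), and that of *Rec8* is 5.89% and 5.32%.

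Of the axis genes, *Hormad1* was lower in G34R cells. *Hormad1* encodes a HORMA domain protein that marks unsynapsed axes, and had 8.23 RPKM in WT cells (7.78 to 8.69, 1256 estimated reads) and 2.79 RPKM in G34R cells (2.51 to 3.10, 351 reads). The difference was 2.95-fold, for a log2 ratio of -1.56 (-1.73 to -1.39). The gene (ENSMUSG00000028109) lies on the plus strand of chromosome 3 from 95363599 to 95391593, with 16 exons in its longest coding transcript. *Sycp3*, the main filament protein of the axis, had 1.49 RPKM in WT cells (166 reads) and 2.02 RPKM in G34R cells (186 reads), for a log2 ratio of 0.44 (0.13 to 0.76) in the other direction. It lies on the plus strand of chromosome 10 from 87922314 to 87935981. *Sycp2*, its partner, stayed below 0.25 RPKM, at 0.15 RPKM in WT cells (79 reads) and 0.06 RPKM in G34R cells (26 reads). Its log2 ratio of -1.32 (-2.02 to -0.67) rests on few reads and on values given to 2 decimals, and it was not counted among the lower genes. *Sycp2* lies on the minus strand of chromosome 2 from 178079998 to 178142390, in 44 exons.

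The members that join the axes, *Syce1* and *Sycp1*, were both within 2-fold. *Syce1*, of the central element, had 6.82 RPKM in WT cells (880 reads) and 3.51 RPKM in G34R cells (373 reads), for a log2 ratio of -0.96 (-1.14 to -0.78). At 1.94-fold it lay just inside the threshold, which falls within its counting interval. It lies on the minus strand of chromosome 7 from 147963128 to 147973753. *Sycp1*, the transverse filament, had 0.58 RPKM in WT cells (178 reads) and 0.76 RPKM in G34R cells (192 reads), for a log2 ratio of 0.39 (0.09 to 0.69). Its intervals, 0.50 to 0.67 and 0.66 to 0.88 RPKM, overlapped, and it lies on the minus strand of chromosome 3 from 102622422 to 102740023.

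*Dmc1* was the member that was higher in G34R cells. This meiosis-specific recombinase had 1.06 RPKM in WT cells (0.92 to 1.22, 207 estimated reads) and 3.66 RPKM in G34R cells (3.37 to 3.97, 587 reads), a 3.45-fold difference with a log2 ratio of 1.79 (1.55 to 2.02). Its counting intervals in the libraries did not overlap, but they leave out replicate spread, which is unknown. The gene (ENSMUSG00000022429) spans 79391930 to 79435529 on the minus strand of chromosome 15, the same chromosome as *Smc1b*. *Spo11*, the nuclease that makes meiotic breaks, encoded on the plus strand of chromosome 2 from 172803201 to 172819077, was listed at 0 in WT cells and at 0.01 RPKM in G34R cells, an estimated 3 reads. A count of 0 allows up to 3 reads, or 0.00866 RPKM for *Spo11* in WT cells, so no ratio is given and a difference was not detectable at this depth. That limit uses merged exons of 3921 bp, against 1709 bp in the longest coding transcript.

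The order of the members differed between the libraries. In WT cells *Hormad1* and *Stag3* came first, with overlapping counting intervals, followed by *Syce1* and *Smc1b*, whose intervals also overlapped. *Rec8*, *Sycp3*, *Dmc1*, *Sycp1*, *Sycp2* and *Spo11* followed, each with an interval below that of the gene before it. In G34R cells *Stag3* came first and *Dmc1* second, and *Smc1b* was eighth of 10. *Dmc1*, *Syce1* and *Rec8* had overlapping intervals there, as did *Rec8* and *Hormad1*. Among all probes, *Smc1b* stood above 82.3% in WT and 55.5% in G34R cells, *Hormad1* above 85.6% and 72.1%, and *Dmc1* above 61% and 75.5%. None of the 50-base windows in the coding transcripts of the 10 members occurred in a coding transcript of another gene, so reads were not shared with such copies.

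Further genes of the same process were lower in G34R cells or within 2-fold. Of 36 further meiotic genes listed, 35 had a probe (*Ankrd31* had none) and 25 reached 0.25 RPKM. Of these, 9 were lower, 0 were higher and 16 were within 2-fold, with a median log2 ratio of -0.64. Over all probes 9.64% were lower and 5.79% higher. From 0.25 to under 1 RPKM, where 20.7% of probes were lower, 1 of 6 of these genes was. From 1 to under 5 RPKM 3 of 7 were lower (7.32% of probes), and from 5 RPKM upwards 3 of 10 (3.1%). The lower genes *Sycp2l*, *Meiob* and *Ccdc79* reached the minimum in WT cells only, so they could not have been counted as higher. *Meiob* and *Ccdc79* had means below these levels. *Hormad2*, the paralogue of Hormad1, had 2.95 RPKM in WT and 0.93 RPKM in G34R cells, for a log2 ratio of -1.67, and the oocyte axis gene *Sycp2l* had 0.41 and 0.09 RPKM. Both further axis genes listed were thus lower, as *Hormad1* was, while the axis gene *Sycp3* differed the other way by less than 2-fold (log2 ratio 0.44).

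Among genes of break formation and strand exchange, *Rec114* (probe 2410076I21Rik), needed for breaks by Spo11, had 8.05 and 2.44 RPKM. *Mnd1*, a partner of Dmc1 in strand exchange, had 15.34 RPKM in WT and 5.23 RPKM in G34R cells, for a log2 ratio of -1.55 against 1.79 for *Dmc1*. Its obligate partner *Psmc3ip* had 5.16 and 5.25 RPKM, so the genes of this step differed in direction and size. *Meiob* (probe 4930528F23Rik), a single-strand DNA binding protein, had 0.30 and 0.06 RPKM. *Ccnb1ip1*, a ubiquitin ligase needed for crossovers, had 10.62 and 0.53 RPKM, and its log2 ratio of -4.32 was the lowest of the 25.

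*Stra8*, which drives entry into meiosis, had 4.53 RPKM in WT and 0.52 RPKM in G34R cells, for a log2 ratio of -3.12. *Gm1564* (Meioc), which keeps germ cells in meiotic prophase, had 3.87 and 1.87 RPKM, and *Ccdc79* (Terb1), which ties telomeres to the nuclear envelope, had 0.35 and 0.07 RPKM. The 3 genes of this list with the highest mean RPKM were within 2-fold. The centromeric cohesin protector *Sgol2* had 17.35 and 15.88 RPKM, and the checkpoint ATPase *Trip13* had 16.31 and 13.28 RPKM. *Syce2*, a central element gene like *Syce1*, had 12.33 and 17.20 RPKM, and lies on chromosome 8, whose 729 probes with at least 0.25 RPKM had a median log2 ratio of 0.35 against -0.07 for all probes. The part of that chromosome in its difference was not tested.

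**Figure D3:**
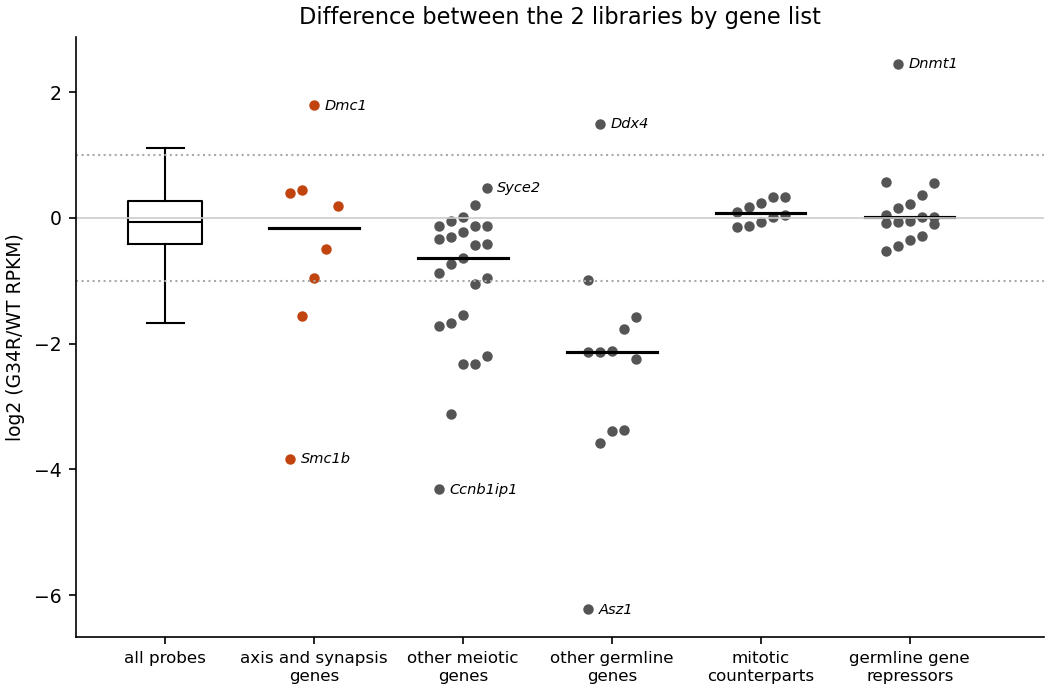
log2 (G34R/WT RPKM) of each gene with at least 0.25 RPKM in 1 library, by list, with a black line at each list's median. The box of all 13366 probes shows the quartiles and its whiskers the central 90%, and dotted lines mark 2-fold. The members spread from -3.84 to 1.79 around a median of -0.16, and the other germline genes have a median of -2.14.

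Germ cell genes outside the meiotic chromosome machinery, silenced by promoter methylation in somatic cells, were listed as well. Of 12 such genes, all with at least 0.25 RPKM, 10 were lower in G34R cells, 1 was higher and 1 (*Mov10l1*, 2.41 and 1.21 RPKM) lay just within 2-fold, with a median log2 ratio of -2.14. Over all probes 9.64% were lower and 5.79% higher. From 0.25 to under 1 RPKM, where 20.7% of probes were lower, 3 of 3 of these genes were. From 1 to under 5 RPKM 4 of 5 were lower (7.32% of probes), and from 5 RPKM upwards 3 of 4 (3.1%). The 3 genes under 1 RPKM, *Asz1*, *Taf7l* and *Tex101*, reached the minimum in WT cells only, so they could not have been counted as higher. The list was drawn up with earlier results of these data known. *Dazl*, an RNA-binding protein of early germ cells, had 7.07 RPKM in WT and 1.60 RPKM in G34R cells, and *Mael*, of the piRNA pathway, had 9.14 and 2.70 RPKM. The germline transcription factor *Sohlh2* had 10.88 and 2.51 RPKM. Like *Dmc1*, the RNA helicase gene *Ddx4* went the other way, with 2.64 RPKM in WT and 7.49 RPKM in G34R cells, a 2.84-fold difference.

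Among the rest, *Slc25a31*, the germ cell ADP/ATP carrier, had 1.75 and 0.37 RPKM, *Stk31* had 4.19 and 1.40 RPKM, and *Taf7l*, a paralogue of a general transcription factor subunit, had 0.97 and 0.22 RPKM. *Asz1* (0.75 and 0.01 RPKM) and *Tex101* (0.48 and 0.04 RPKM) had 2 and 3 estimated reads in G34R cells, so their log2 ratios of -6.23 (-9.32 to -4.39) and -3.58 (-5.96 to -1.99) are imprecise. The testis tubulin genes *Tuba3a* (23.74 and 2.26 RPKM) and *Tuba3b* (7.68 and 0.74 RPKM) share 32.4% and 27.4% of their 50-base windows with other tubulin genes, mainly with each other, so their separate values are uncertain. Without them 8 of 10 genes were lower and 1 was higher. *Dazl*, *Ddx4* and *Sohlh2* are also germ cell markers, and so is *Stra8*.

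Of 17 genes that repress germline genes, 0 were lower and 1 was higher in G34R cells. Over all probes 9.64% were lower and 5.79% higher, so 1 higher gene of 17 is near the share of all probes. That gene was *Dnmt1*, the maintenance DNA methyltransferase, with 8.14 RPKM in WT cells (3784 estimated reads) and 44.43 RPKM in G34R cells (17003 reads), for a log2 ratio of 2.45. Its partner *Uhrf1* (53.22 and 51.10 RPKM) and the de novo enzymes *Dnmt3a* (4.68 and 3.82 RPKM) and *Dnmt3b* (34.06 and 32.08 RPKM) were within 2-fold. The 10 genes of PRC1.6 had log2 ratios from -0.52 (*L3mbtl2*) to 0.58 (*Tfdp1*), the latter on chromosome 8, with *E2f6* at 4.27 and 4.29 RPKM, *Mga* at 16.14 and 11.81 RPKM and *Max* at 13.98 and 10.94 RPKM. *Setdb1*, *Ehmt1* and *Ehmt2*, which encode H3K9 methyltransferases, had log2 ratios of 0.02, 0.05 and 0.56. *Dnmt1* was thus higher in the library in which *Smc1b*, *Hormad1* and 10 of the 12 germline genes were lower and *Dmc1* and *Ddx4* were higher. Its part in these differences was not tested.

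Among genes that reached 0.25 RPKM and did not overlap them, the nearest on either side of the 3 members past 2-fold were within 2-fold. *Smc1b* has *Fam118a* 1863 bp away on 1 side (4.87 and 4.23 RPKM, log2 ratio -0.20) and *Fbln1* 73992 bp away on the other (4.80 and 2.44 RPKM, -0.98). *Gm10923*, on the opposite strand within *Smc1b*, had 0.49 and 0.12 RPKM, and counting was strand-specific. *Ribc2*, which lies nearer but stayed under that minimum and was named after its values were seen, starts 142 bp from the start of *Smc1b* on the opposite strand, and had 0.09 RPKM in WT cells and was listed at 0 in G34R cells. Of the 10 genes whose starts lay within 500 kb of that of *Smc1b*, 3 were lower and 0 were higher, with a median log2 ratio of -0.17. The 3 were *Gm10923* (-2.03), *Wnt7b* (-1.42) and *Arhgap8* (-1.23). *Gm10923* reached the minimum in WT cells only, so it could not have been counted as higher. Over all probes 9.64% were lower and 5.79% higher.

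*Hormad1* lies between *Arnt* (5.96 and 6.70 RPKM) and *Golph3l* (5.66 and 4.84 RPKM), with log2 ratios of 0.17 and -0.23, and of 33 genes within 500 kb 1 was lower and 1 higher. *Dmc1* lies between *Ddx17* (44.79 and 55.00 RPKM) and *Cby1* (7.54 and 7.93 RPKM), with log2 ratios of 0.30 and 0.07, and of 25 genes within 500 kb 2 were lower and 0 higher. The 519 probes of chromosome 15, which holds *Smc1b* and *Dmc1*, had a median log2 ratio of -0.02, and the 598 probes of chromosome 3 had a median of -0.08. *Rec8*, which was within 2-fold, stood among genes that were higher more often, with 7 of 28 higher, 0 lower and a median of 0.40. The shares of all probes were 5.79% higher and 9.64% lower. *Sycp3* lies within *Chpt1* on the opposite strand, which had 0.67 and 0.53 RPKM.

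**Figure D4:**
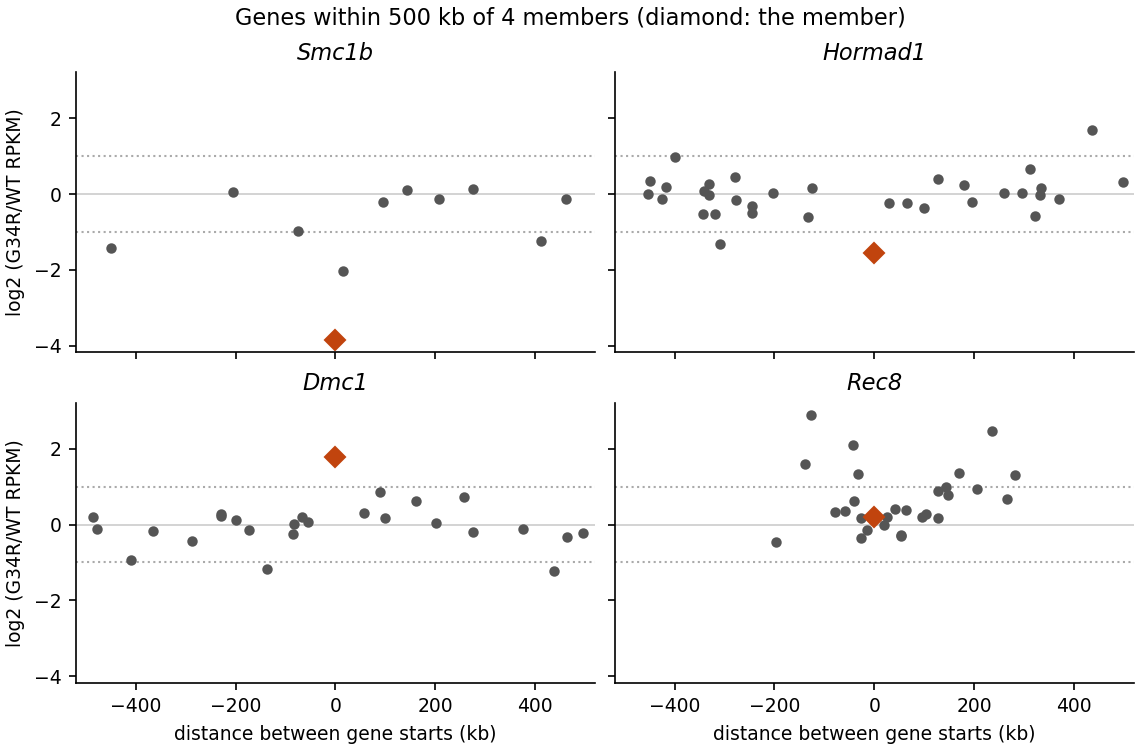
log2 (G34R/WT RPKM) of genes with at least 0.25 RPKM in 1 library, against the distance of their starts from that of *Smc1b*, *Hormad1*, *Dmc1* or *Rec8* (red diamonds) in kb, positive in the direction of transcription. Dotted lines mark 2-fold. *Smc1b* (-3.84), *Hormad1* (-1.56) and *Dmc1* (1.79) stand away from the median of their neighbours (-0.17, 0.01 and 0.01), and *Rec8* (0.19) lies among its own. Of the 10 neighbours of *Smc1b*, 3 were also lower, against 9.64% of all probes. They include *Gm10923*, which lies within *Smc1b* and reached 0.25 RPKM in WT cells only.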

How the data were processed

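RNA from WT and G34R ES cells was analysed as 1 library each, amplified over 12 cycles from 500 ng of RNA. The authors aligned stranded 50 bp single-end reads to mm9 with STAR (2.4.2a) and counted primary alignments in Seqmonk over merged transcripts. The deposited values are RPKM per gene, corrected for transcript length, relative to each library's own total. No read counts were used.

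Values under 0.01 RPKM were set to 0.01 before log2 (G34R/WT RPKM) was taken. Gene models were from GENCODE M1 (mm9), which matched 26030 of the 26127 probes, and promoters from RefSeq (GRCm38.p6). Depth was estimated from low values (fewer than 6 reads) of genes with 1 exon and under 800 bp, and multi-exon genes under 800 bp gave 88600000 and 72700000 reads. Merged exon lengths were taken as those behind the RPKM, which could not be checked for longer genes, all members included. All members were named, as were genes of the meiotic, germline and repressor lists past 2-fold, the 3 of highest mean RPKM in each of these lists, paired mitotic genes and flanking genes. *Psmc3ip*, *Mov10l1*, *Chpt1*, *Smc3*, *Nipbl*, *Wapal*, the examples of markers and the repressors other than *Dnmt1*, *Dnmt3b* and *Uhrf1* were named outside this rule, after their values were seen. 1 further mitotic gene is not reported here and is not among the 10 counted. Older symbols were matched through RefSeq. The members and lists were chosen with earlier results of these data known. An older name for *Mau2* that also matched another gene was removed after the values were seen. The scripts were tested on simulated data with known depths and folds. Alternatives were other pseudocounts, minimums, scalings and folds. Scripts ran in Python 3.11.15 with SciPy 1.17.1 for the intervals, pandas 2.3.3, NumPy 2.4.6 and, for plots, matplotlib 3.10.9.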

Additional observations from a re-analysis of the deposited data

How the results depend on the processing

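Of the 9 members with a ratio, none changed sign with 0.01 or 1 added to each RPKM, with both libraries scaled to the same sum or with ratios centred on the median of probes with at least 1 RPKM (-0.054). Adding 1 RPKM shrank the log2 ratios of *Smc1b* to -2.34, *Hormad1* to -1.28, *Dmc1* to 1.18 and *Sycp2* to -0.12, as it does for low values, and left 5 other meiotic genes lower in place of 9. With a 3-fold threshold 1 member was lower in place of 2, and 0 other germline genes were higher in place of 1. Without a minimum, 1 further meiotic gene was higher in place of 0, *Spata22* (0.06 and 0.13 RPKM). With at least 1 RPKM the median of the members was -0.50 over 7 genes, in place of -0.16 over 8, since *Sycp1* drops out. The remaining 65 of 70 counts and medians stayed within 1.5 times or 0.1 of the values reported. No paired analysis was possible because there was 1 library per cell line, so no replicate could be left out.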

Other observations

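*Ctcfl*, the germ cell paralogue of the insulator gene Ctcf, lies 100033 bp beyond *Spo11* on chromosome 2 and was picked after its values were seen. It had 3.10 RPKM in WT and 0.02 RPKM in G34R cells, with *Spo11* itself at 0.01 RPKM or less in both libraries.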
